A study of Mus musculus with 15 samples.

Results

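The transcripts of 10 genes that encode exercise-linked neurotrophic factors and their receptors were followed in 2 brain regions, the cerebellum (Ce) and the striatum (St). The mice came from a high-running line (Hi), bred over generations for voluntary activity in wheels, and from a control line (Co). The genes were Bdnf, Ntf3, Ntrk2, Ntrk3, Ngfr, Sort1, Vgf, Igf1, Igf1r and Fndc5. They were chosen by symbol as genes known from the biology of exercise, and earlier results of these data were known at that time. The deposited table held 26628 genes, and all 10 passed the filter on low values. The 4 groups were CeCo, CeHi, StCo and StHi, with 4, 4, 4 and 3 samples.

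All mice were males of the Hsd:ICR strain, labelled as 6 weeks of age. The Hi mice came from generation 66 of the selection experiment, in which 1 selected line and 1 control line were studied, so the effect of selection and any other difference between these lines cannot be told apart. Mice of both lines lived with a running wheel and were dissected on day 7, in the dark phase when mice are active. The study reports that mice of the selected line ran more and faster on these wheels than mice of the control line. Effects of the line and of the running itself therefore cannot be told apart. The line of each sample rests on its label. For several genes the study describes the line difference in the direction opposite to that under the labels of the deposited samples, and this was not resolved, so Hi and Co may be exchanged. Hi and Co here mean the samples labelled as selected and as control, and the sign of every line difference depends on those labels.

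Neurotrophins are secreted growth factors that support the survival of neurons and adjust their synapses. Brain-derived neurotrophic factor, encoded by Bdnf, signals through the tyrosine kinase TrkB, encoded by Ntrk2, and neurotrophin 3, encoded by Ntf3, signals mainly through TrkC, encoded by Ntrk3. Their uncleaved precursors bind the pan-neurotrophin receptor, encoded by Ngfr, together with sortilin, encoded by Sort1. Vgf encodes a granin-like precursor of secreted peptides whose transcription is raised by neurotrophins, insulin-like growth factor I acts through the receptor encoded by Igf1r, and Fndc5 encodes the membrane precursor of irisin. Wheel running is known for raising Bdnf in the rodent hippocampus. In the adult rodent brain most striatal BDNF protein is made in the cortex and carried along axons, and granule cells are a main source of Bdnf transcript in the cerebellum.

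For each gene the deposited table holds fragment counts scaled by library size but not by the length of the gene, which are called normalized counts here. Totals ranged from 38499264 to 43669012 normalized counts per sample, equal to an estimated 32909447 to 47486319 fragments, and a value of 2.52 to 3.89 corresponded to 3 fragments. Correlations of log2 values within a group lay between 0.986 and 0.995, and the first principal component, which separated the regions, held 88.7% of the variance. The region labels fitted the defining markers of each tissue. The 6 granule cell markers of the cerebellum summed to 194979 to 239352 normalized counts in the Ce and to 4505 to 6868 in the St, and the 9 markers of medium spiny neurons summed to 211995 to 292929 in the St and to 14466 to 16602 in the Ce. Tissue other than the labelled region differed between samples, since the 6 choroid plexus markers summed to between 1022 and 116244 in the Ce and reached 17995 in 1 of the 3 StHi samples. In bulk tissue, fewer cells of a type and less RNA per cell cannot be told apart.

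Differences are given as log2(fold change) with the standard error (SE) and the FDR-adjusted P-value of a limma fit of the 4 group means to log2(normalized count + 1), adjusted over 15213 genes, and a difference passed when this value was under 0.05. The region was the main divide among the 10 genes, and 9 of them differed between Ce and St over both lines. This share is close to the background, since 80.2% of all genes tested differed between the regions. Ntf3, Fndc5, Bdnf and Ntrk3 were higher in the Ce, as were 40.6% of all genes, and Vgf, Sort1, Ngfr, Ntrk2 and Igf1 were higher in the St, as were 39.5%. Between the lines, Vgf was higher in the samples labelled CeHi than in those labelled CeCo, and none of the 10 genes passed in the St.

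**Figure D1:**
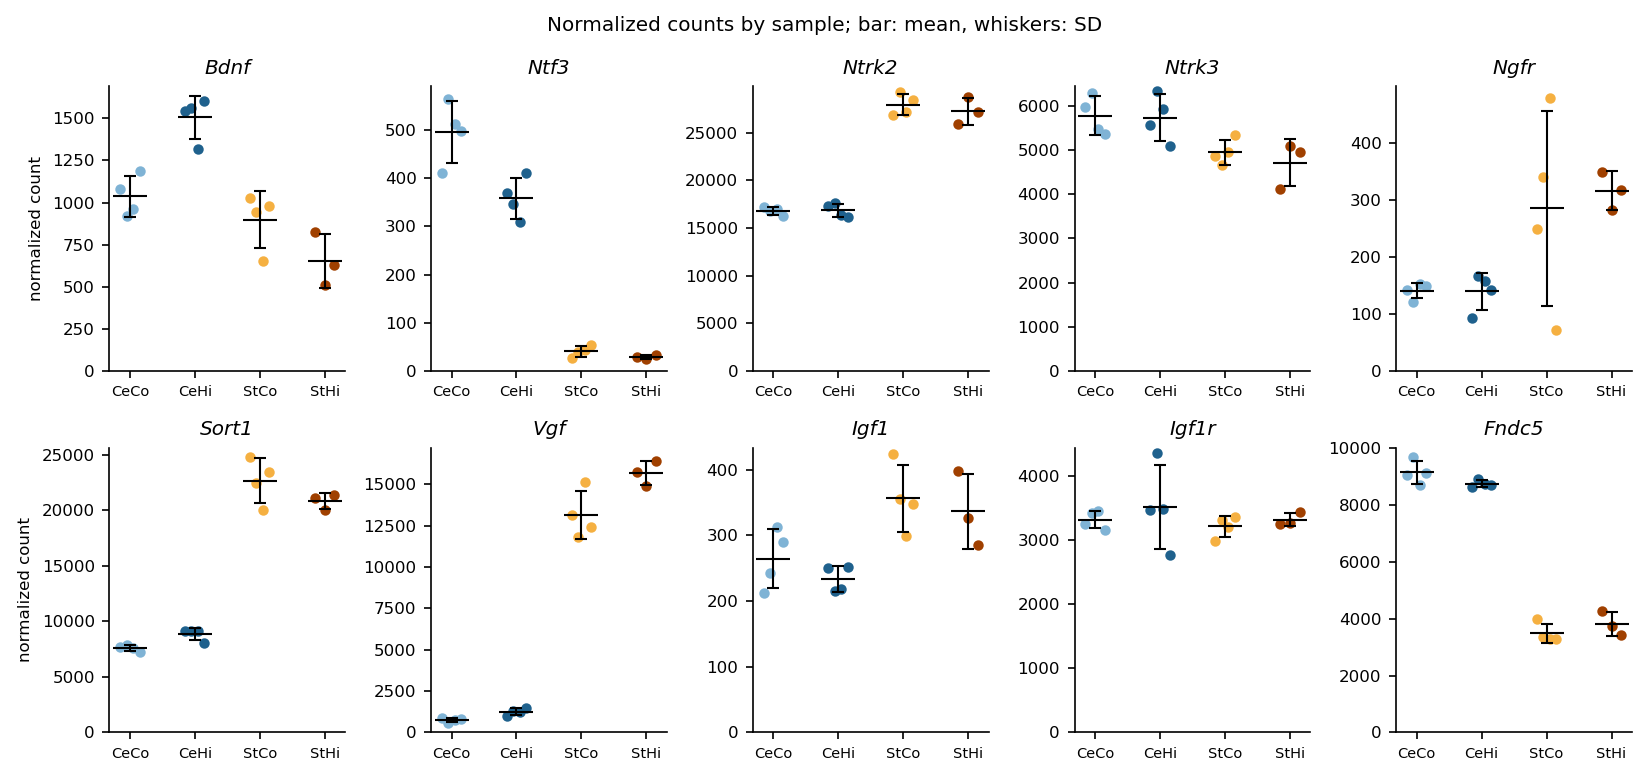
Normalized count of each of the 10 genes (vertical axis, from 0, with its own scale in each panel) in the 4 CeCo, 4 CeHi, 4 StCo and 3 StHi samples, where each point is 1 sample, the horizontal bar is the group mean and the whiskers are 1 SD. The regions separate for Ntf3, Vgf, Ntrk2, Sort1 and Fndc5. In the cerebellum the lines separate for Bdnf, Sort1 and Vgf and touch for Ntf3, and 1 StCo sample lies at 72.2 for Ngfr.

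Bdnf and Ntf3 encode the ligands of TrkB and TrkC. Bdnf lies at chromosome 2, 109674700 to 109727007, on the plus strand of GRCm38 and has 11 annotated transcripts from several starts that share the coding exon, and Ntf3 lies at chromosome 6, 126101412 to 126166910, on the minus strand with 3 transcripts. The value of a gene sums all of its starts, so the use of single promoters was not measured. Bdnf shares 896 of its exon bases (14.4%) with the antisense gene Gm45346, which has no row in the table, and whether strand was used in counting is not given in the sources used here, so reads of the pair cannot be told apart.

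RefSeq promoter entries on GRCm38.p6 were found for 7 of the 10 genes and held 14 starts. Vgf, Sort1 and Ntrk3 had no entry, so their promoters were not searched for any motif. Motifs were searched in the 250 bases before each start, called a window here. Of these, 1 of the 7 windows of Bdnf held the calcium- and cAMP-response element TCACGTCA, a form of the response element that is known from the activity-dependent promoter of this gene, and it lay 38 bases before the start. In all, 0.35% of 32851 promoter windows held these letters on either strand. An Ntf3 window held the E-box CACGTG, a general site of basic helix-loop-helix factors, which was present in 6.02% of all windows. The window of Fndc5 held the Egr1 element GCGGGGGCG on each strand, and 2.57% of all windows held it. The full cAMP response element TGACGTCA (1.55% of all windows) and the estrogen-related receptor element TCAAGGTCA (0.39%) were in none of the 14 windows. These matches describe letters and do not show that a factor was bound. The 250 bases before each of these starts are shown 5′ to 3′ because they carry the motifs of the activity-regulated Bdnf start, the other ligand and the irisin precursor, with the motif in capitals.
Bdnf, chr2:109692186-109692435, plus strand: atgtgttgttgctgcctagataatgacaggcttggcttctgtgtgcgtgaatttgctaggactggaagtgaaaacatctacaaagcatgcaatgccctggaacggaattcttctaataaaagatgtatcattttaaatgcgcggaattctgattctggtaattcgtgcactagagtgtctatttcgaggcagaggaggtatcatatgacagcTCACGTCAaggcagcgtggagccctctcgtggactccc
Ntf3, chr6:126166745-126166994, minus strand: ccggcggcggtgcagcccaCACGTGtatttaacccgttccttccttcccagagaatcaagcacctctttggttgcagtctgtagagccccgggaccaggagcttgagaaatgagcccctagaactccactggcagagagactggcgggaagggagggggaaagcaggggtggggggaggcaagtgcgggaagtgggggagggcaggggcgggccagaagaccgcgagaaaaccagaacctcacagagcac
Fndc5, chr4:129136749-129136998, plus strand: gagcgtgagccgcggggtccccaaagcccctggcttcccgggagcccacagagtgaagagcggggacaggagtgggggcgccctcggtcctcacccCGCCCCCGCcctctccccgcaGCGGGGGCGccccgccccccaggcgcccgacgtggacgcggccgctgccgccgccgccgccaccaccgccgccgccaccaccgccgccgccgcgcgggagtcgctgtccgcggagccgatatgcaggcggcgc

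Bdnf had 1079, 921, 961 and 1190 normalized counts in the 4 CeCo samples and 1545, 1561, 1316 and 1602 in the 4 CeHi samples. Every CeHi sample lay above every CeCo sample, with means of 1038 ± 122 (SD, n = 4) and 1506 ± 129 (SD, n = 4). In the St, Bdnf had 1024, 942, 652 and 978 normalized counts in StCo and 826, 509 and 629 in StHi, and the lines overlapped through the StCo sample at 652. The line difference (Hi minus Co) in log2(fold change) was 0.53 (SE 0.153, FDR-adjusted P-value = 0.0525) in the Ce and -0.47 (SE 0.165, FDR-adjusted P-value = 0.174) in the St, and neither passed. The difference between these line differences, the line-by-region interaction, was 1.0 (SE 0.225, FDR-adjusted P-value = 0.0649) and did not pass either. The line difference in the Ce and the interaction passed with the replicate number as a block (FDR-adjusted P-value = 0.0143 and 0.0331). This block ties samples of 1 number across both regions and both lines. Residuals of Ce and St samples of 1 number correlated in Co and not in Hi. Those of Co and Hi samples of 1 number correlated at -0.22 to 0.18 in the Ce and -0.04 to 0.20 in the St. With a block within line the interaction did not pass. Leaving out 1 sample also moved these calls. The line difference in the Ce passed without StCo replicate 2 (FDR-adjusted P-value = 0.0161), StHi replicate 0 (0.0244) or StHi replicate 1 (0.0315), which change the shared spread and not the difference, and that in the St passed without StCo replicate 2 (-0.62, FDR-adjusted P-value = 0.0265) or StHi replicate 0 (-0.65, FDR-adjusted P-value = 0.0432). The interaction passed without these same samples of the St, at 1.15 (FDR-adjusted P-value = 0.0098) and 1.19 (FDR-adjusted P-value = 0.018).

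The region difference of Bdnf was 0.22 (SE 0.153, FDR-adjusted P-value = 0.211) in Co and 1.22 (SE 0.165, FDR-adjusted P-value = 7.48e-06) in Hi, that is 2.33-fold higher in the Ce of the Hi line. The test of the difference between these values is the interaction above, which did not pass. The order of the group means was CeHi, CeCo, StCo and StHi, and no neighbours in this order passed the test.

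The Bdnf values of the St moved with markers of cortical projection neurons, a cell type of the adjoining cortex that makes Bdnf. The 8 measured markers, with Tbr1, Neurod6 and Emx1 among them, summed to 12808, 13218, 9496 and 11300 normalized counts in StCo replicates 0, 1, 2 and 3 and to 10911, 6026 and 8720 in StHi replicates 0, 1 and 2. The sample with the lowest Bdnf was also lowest for this sum, and ranks 4 to 7 held the same samples for both. None of the 8 markers passed for the line difference in the St, where their median log2(fold change) was -0.55, against 0.00 over all genes tested, and the largest decrease was that of Neurod6 at -0.94 (SE 0.259, FDR-adjusted P-value = 0.0749). The part of such tissue in the Bdnf values was not tested.

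**Figure D2:**
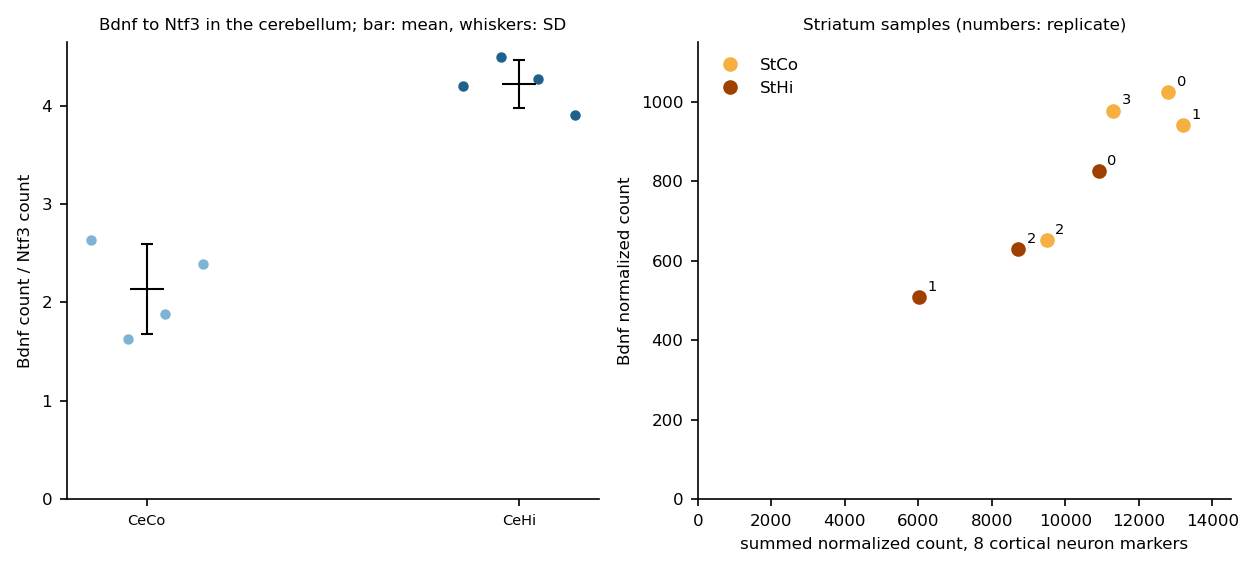
Left, the ratio of Bdnf to Ntf3 normalized counts in each CeCo and CeHi sample (points) with the group mean (bar) and 1 SD (whiskers), which was 2.13 in CeCo and 4.22 in CeHi. Right, Bdnf normalized count against the summed normalized count of 8 cortical projection neuron markers in the 7 St samples, labelled with their replicate number, where StHi replicate 1 is lowest on both axes.

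Ntf3 had 410, 564, 512 and 499 normalized counts in CeCo and 368, 347, 308 and 410.04 in CeHi. The lowest CeCo sample (410.07) and the highest CeHi sample were separated by less than 1 normalized count, so that the groups touched without overlapping. In the St, Ntf3 had 25.9, 38.6, 44.1 and 53.9 normalized counts in StCo and 29.8, 25.2 and 32.1 in StHi, which overlapped. The region set its level, with a log2(fold change) of 3.59 (SE 0.132, FDR-adjusted P-value = 7.24e-14) between Ce and St, a 12.1-fold difference that was 3.61 in Co and 3.57 in Hi.

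Between the lines, Ntf3 had a log2(fold change) of -0.47 (SE 0.18, FDR-adjusted P-value = 0.144) in the Ce and of -0.44 (SE 0.194, FDR-adjusted P-value = 0.314) in the St, and the latter passed without StCo replicate 0, at -0.63 (FDR-adjusted P-value = 0.0493). Over both regions Ntf3 fell by 0.45 on the log2 scale in Hi (SE 0.132, FDR-adjusted P-value = 0.0423), and this call was lost in 12 of the 15 fits that left out 1 sample, with FDR-adjusted P-values up to 0.104, and kept without CeCo replicate 0, CeHi replicate 3 or StCo replicate 0. Vgf was the other of 2 genes that passed for the line over both regions, where 8.48% of all genes tested passed. The order of the group means was CeCo, CeHi, StCo and StHi, where the neighbours of 1 region did not pass and the CeHi and StCo samples did not overlap.

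Bdnf and Ntf3 thus had opposite signs between the lines in the Ce, and their ratio within a sample was 2.13 ± 0.458 (SD, n = 4) in CeCo and 4.22 ± 0.244 (SD, n = 4) in CeHi, and the lines did not overlap. In the St the ratio was 24.2 ± 11 (SD, n = 4) in StCo and 22.5 ± 4.51 (SD, n = 3) in StHi, with overlap. The ratio was formed after the values of both genes were known and is a description without a test.

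Vgf, at chromosome 5, 137026392 to 137033351, on the plus strand, is a granin-like gene that neurotrophins induce in neurons. It had 901, 579, 724 and 815 normalized counts in CeCo and 974, 1292, 1246 and 1469 in CeHi, with means of 755 ± 138 (SD, n = 4) and 1245 ± 205 (SD, n = 4). Every CeHi sample lay above every CeCo sample. With the labels as deposited, Vgf rose 1.65-fold in Hi, a log2(fold change) of 0.72 (SE 0.135, FDR-adjusted P-value = 0.00431), and it was the 1 gene of the 10 that passed in the Ce, where 5.94% of all genes tested passed. This call held in all 15 fits that left out a sample, with FDR-adjusted P-values from 0.000871 to 0.0143. Markers of medium spiny neurons, a cell type of the St, had a median line difference of 0.39 over their 9 genes in the Ce. None passed, and the median over all genes tested was 0.00. In replicates 0, 1, 2 and 3 they summed to 14966, 14466, 14494 and 15089 normalized counts in CeCo and to 15703, 16602, 15953 and 14916 in CeHi. CeHi replicate 3, with the highest Vgf, had the lowest sum of CeHi, and CeCo replicate 1, with the lowest Vgf, had the lowest sum of CeCo. The 8 cortical markers had a median line difference of 0.26 in the Ce. For their sum CeHi replicate 3 was the lowest of CeHi (5870) and CeCo replicate 1 the highest of CeCo (6229). The part of such tissue in the Vgf values was not tested.

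In the St, Vgf was far more abundant, with 13172, 11830, 15147 and 12443 normalized counts in StCo and 15736, 14923 and 16412 in StHi. All 3 StHi samples lay above the StCo mean, but the highest StCo sample lay above the lowest of StHi. The line difference in the St was 0.25 (SE 0.146, FDR-adjusted P-value = 0.483) and did not pass. The interaction of 0.47 (SE 0.198, FDR-adjusted P-value = 0.452) did not pass, so the rise in the Ce was not shown to differ from the value in the St. Over both regions Vgf rose by 0.49 (SE 0.0992, FDR-adjusted P-value = 0.00626) in Hi. Vgf was 15-fold higher in the St than in the Ce, a log2(fold change) (Ce minus St) of -3.91 (SE 0.0992, FDR-adjusted P-value = 9.29e-15).

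The receptors of the neurotrophins differed between the regions and none of them passed between the lines. Ntrk2, at chromosome 13, 58806569 to 59133970, on the plus strand, is the TrkB gene and ranged from 16147 to 17581 normalized counts in the 8 Ce samples and from 25884 to 29236 in the 7 St samples, without overlap. It was 1.64-fold higher in the St, a log2(fold change) of -0.72 (SE 0.0363, FDR-adjusted P-value = 5.52e-12). Its line differences were 0.00 (95% confidence interval -0.11 to 0.10) in the Ce and -0.04 (-0.15 to 0.07) in the St.

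Ntrk3, at chromosome 7, 78175959 to 78738012, on the minus strand, is the TrkC gene and ranged from 5084 to 6336 normalized counts in the Ce and from 4113 to 5329 in the St, where the ranges overlapped. It was 1.19-fold higher in the Ce, a log2(fold change) of 0.25 (SE 0.0577, FDR-adjusted P-value = 0.000831), opposite in direction to Ntrk2. Its line differences were -0.02 (95% confidence interval -0.19 to 0.15) in the Ce and -0.08 (-0.26 to 0.10) in the St. Per kilobase of the longest transcript, the ratio of Ntrk2 to Ntrk3 was 6.58 ± 0.438 (SD, n = 4) in CeCo, 6.66 ± 0.488 (SD, n = 4) in CeHi, 12.7 ± 0.929 (SD, n = 4) in StCo and 13.1 ± 0.959 (SD, n = 3) in StHi. Both genes have kinase and truncated isoforms, which the gene-level values sum, so signalling and truncated receptors were not distinguished.

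Ngfr, at chromosome 11, 95568818 to 95587735, on the minus strand, encodes the pan-neurotrophin receptor, which in the adult forebrain is known from basal forebrain cholinergic neurons. It was low, with 142, 121, 152 and 149 normalized counts in CeCo, 93.3, 166, 157 and 142 in CeHi, 248, 340, 479 and 72.2 in StCo, and 349, 282 and 317 in StHi. The StCo sample at 72.2 lay below all Ce samples and the other 6 St samples lay above them. Over both lines Ngfr was 1.96-fold higher in the St, a log2(fold change) of -0.97 (SE 0.315, FDR-adjusted P-value = 0.0119). In Co the difference was -0.73 (SE 0.428, FDR-adjusted P-value = 0.138), and without the StCo sample at 72.2 it was -1.29 (FDR-adjusted P-value = 4.64e-05). In Hi it was -1.21 (SE 0.463, FDR-adjusted P-value = 0.032), a call lost without any 1 of the 3 StHi samples and without CeHi replicate 0 or 3, with FDR-adjusted P-values up to 0.0874.

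The same StCo sample had the lowest sum of cholinergic markers among the St samples. The 5 markers (Chat, Slc18a3, Slc5a7, Lhx8 and Gbx1) summed to 2987 normalized counts in it and to between 3428 and 4184 in the other 6 St samples, against 16.9 to 62.4 in the Ce. It was lowest for Gbx1, Lhx8, Slc18a3 and Slc5a7 and not for Chat, the gene of the enzyme that makes acetylcholine, which had 788 normalized counts in it and 779 in StCo replicate 1. Gbx1, a transcription factor gene of these neurons, differed most, with 15.5 normalized counts in it and 49.4 to 101.9 in the other St samples. The part of the cholinergic tissue sampled in the Ngfr values was not tested.

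Sort1, at chromosome 3, 108284082 to 108361511, on the plus strand, encodes sortilin, which sorts BDNF and binds precursor neurotrophins. It had 7707, 7892, 7598 and 7218 normalized counts in CeCo and 9149, 9178, 9104 and 8080 in CeHi. Every CeHi sample lay above every CeCo sample, and the line difference was 0.22 (SE 0.0635, FDR-adjusted P-value = 0.0544), which did not pass. It had 24795, 22466, 20021 and 23466 normalized counts in StCo and 21140, 20015 and 21367 in StHi, where the lines overlapped and the line difference was -0.12 (SE 0.0686, FDR-adjusted P-value = 0.459). The interaction was 0.34 (SE 0.0934, FDR-adjusted P-value = 0.132) and did not pass. The line difference in the Ce passed without CeHi replicate 3, the lowest of its group (0.26, FDR-adjusted P-value = 0.0186), and without StCo replicate 0 (FDR-adjusted P-value = 0.0441) or 2 (FDR-adjusted P-value = 0.0226), and the interaction passed without StCo replicate 2 (0.40, FDR-adjusted P-value = 0.0321). Sort1 was 2.65-fold higher in the St, a log2(fold change) of -1.41 (SE 0.0467, FDR-adjusted P-value = 1.79e-14). Of its exon bases 4.47% are shared with the antisense gene Gm12523, which has no row in the table.

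**Figure D3:**
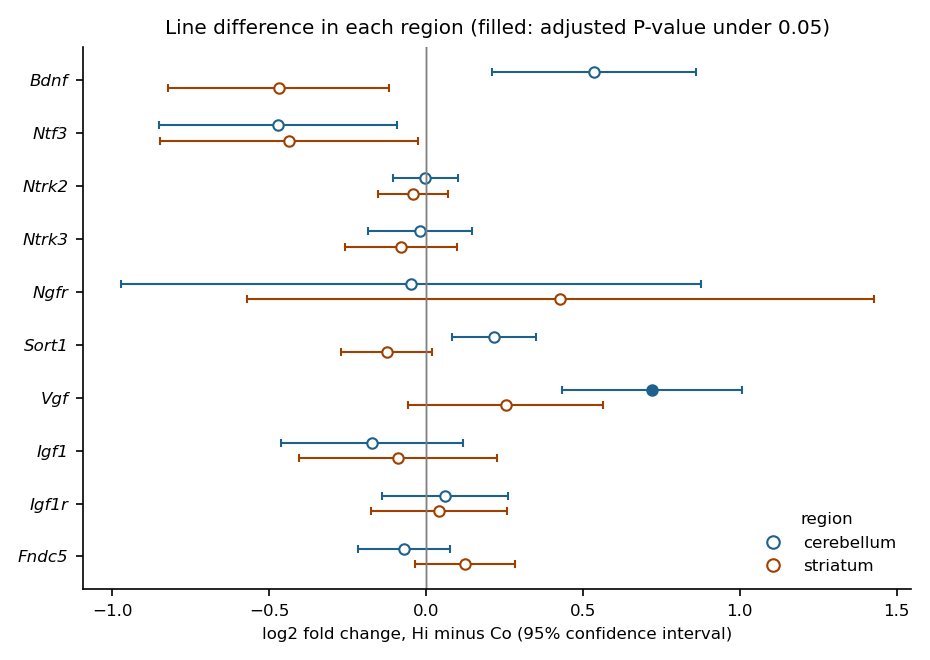
Line difference (log2 fold change, Hi minus Co, horizontal axis) of each of the 10 genes in the Ce and St, with points for the estimate and bars for the 95% confidence interval, filled where the adjusted P-value was under 0.05. Vgf in the Ce at 0.72 is the filled point, and Bdnf and Sort1 lie above 0 in the Ce and below 0 in the St.

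Igf1, at chromosome 10, 87858265 to 87937042, on the plus strand, encodes insulin-like growth factor I, which in the adult brain is made locally as well as taken up from blood. It ranged from 212 to 312 normalized counts in the Ce and from 285 to 423 in the St, with overlap. It was 1.39-fold higher in the St, a log2(fold change) of -0.48 (SE 0.101, FDR-adjusted P-value = 0.000343). The 6 microglia markers, a cell type that can express Igf1, summed to 4671 to 6033 normalized counts in the Ce and to 17536 to 19303 in the St, and the part of these cells in the Igf1 values was not tested. The line differences of Igf1 were -0.17 (95% confidence interval -0.46 to 0.12) in the Ce and -0.09 (-0.40 to 0.23) in the St.

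Igf1r, at chromosome 7, 67952827 to 68233668, on the plus strand, encodes the receptor for insulin-like growth factor I and was the gene of the 10 that did not pass between the regions. It ranged from 2767 to 4370 normalized counts in the Ce and from 2989 to 3441 in the St, and the region difference was 0.05 (95% confidence interval -0.10 to 0.20). Its line differences were 0.06 (-0.14 to 0.26) in the Ce and 0.04 (-0.17 to 0.26) in the St. The 4 CeHi samples had a coefficient of variation of 18.6%, against 4.07% in CeCo, 5.18% in StCo and 3.02% in StHi.

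Fndc5, at chromosome 4, 129136999 to 129144593, on the plus strand, ranged from 8620 to 9697 normalized counts in the Ce and from 3283 to 4262 in the St, without overlap. It was 2.46-fold higher in the Ce, a log2(fold change) of 1.30 (SE 0.051, FDR-adjusted P-value = 1.76e-13). Its line differences were -0.07 (95% confidence interval -0.22 to 0.08) in the Ce and 0.12 (-0.03 to 0.28) in the St. The 8 Ce samples were tight, with coefficients of variation of 4.45% in CeCo and 1.46% in CeHi.

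**Figure D4:**
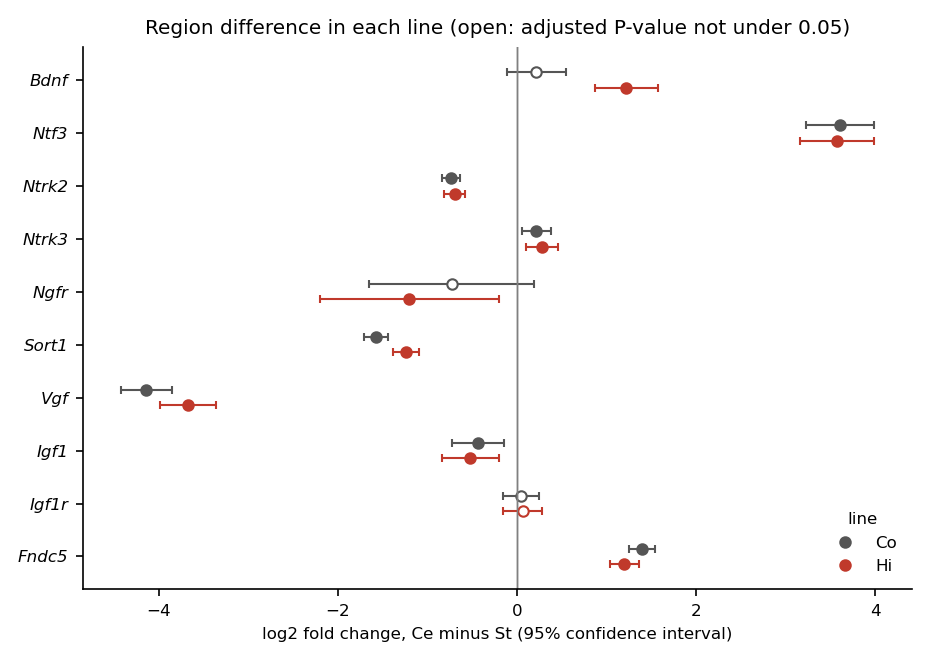
Region difference (log2 fold change, Ce minus St, horizontal axis) of each of the 10 genes in the Co and Hi lines, with points for the estimate and bars for the 95% confidence interval, open where the adjusted P-value was not under 0.05. Ntf3 lies near 3.6 and Vgf near -4 in both lines, and Bdnf is open at 0.22 in Co and filled at 1.22 in Hi.

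By line, 7 of the 10 genes differed between the regions in Co, where 74.7% of all genes tested did, and 9 in Hi, where 70.5% did. Bdnf and Ngfr were the genes that passed in Hi and not in Co. Ntrk3 no longer passed in Co without CeCo replicate 1 (FDR-adjusted P-value = 0.0615) or StCo replicate 1 (0.0588), nor in Hi without StHi replicate 0 (0.068). In the Ce the samples of the lines did not overlap for 4 of the 10 genes (Bdnf, Ntf3, Sort1 and Vgf), against 13.3% of all genes tested, and in the St for 0 of the 10, against 13.1%. For Ntf3 the gap in the Ce was only that between 410.04 and 410.07 normalized counts. The 10 genes were chosen with earlier results of these data known, so these shares are a description and not a test. For the line difference in the St limma called 0 of the 10 genes, against 2.66% of all genes, and 2 of them (Bdnf and Ntf3) had an unadjusted P-value under 0.05, against 14.1% of all genes. For the interaction limma called 0 of the 10 genes, against 0.532% of all genes, and 3 (Bdnf, Sort1 and Vgf) had an unadjusted P-value under 0.05, against 9.55% of all genes. The 10 genes had a median line difference of -0.01 (Ce) and -0.06 (St), against 0.00 and 0.00 over all genes tested. In the 11 lists of cell type markers no gene passed between the lines within a region. The 6 oligodendrocyte markers summed to 196890 to 284606 normalized counts in StCo and to 300421 to 341456 in StHi without overlap, and to 181792 to 222619 in CeCo and 207061 to 264665 in CeHi with overlap, and the part of these cells in the values of the 10 genes was not tested.

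To compare levels between genes, values were divided by the length of the merged exons. Fndc5 was the highest of the 10 genes per kilobase in the Ce, with a mean of 3313 normalized counts per kilobase in CeCo, and Vgf was the highest in the St, with 4423 in StCo and 5278 in StHi. Sort1 had 1005 in CeCo and 2997 in StCo, and Ntrk2 had 871 and 1447. With coding length in place of merged exons, Fndc5 was again highest in the Ce and Ntrk2 was highest in the St, so the order in the St depends on the length used. Of the ligands, Bdnf had 167 normalized counts per kilobase and Ntf3 had 290 in CeCo, the latter above Vgf at 254, and they had 145 and 23.7 in StCo. In CeHi Bdnf had 242 and Ntf3 had 209, and with coding length they had 1193 and 610 in CeCo. The order of these ligands in the Ce thus depended on the line and on the length used. Among 14595 genes with a length, the level of Vgf per kilobase of the longest transcript lay at percentile 53.5 in the Ce and at 97.2 in the St. That of Ntf3 lay at percentile 48.4 in the Ce and at 8.67 in the St.

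Over the 15 samples, the log2 values most correlated with Bdnf were those of Rab11a, Ipcef1 and Gabbr2 (Pearson's r = 0.940, 0.938 and 0.917). For Vgf they were 1700024F20Rik, Lypd1 and Caly (0.997, 0.995 and 0.995), for Ntf3 Zfp229, Ccdc63 and Shf (0.993, 0.992 and 0.991), and for Sort1 Epha4, Thrb and Rasgrp1 (0.996, 0.996 and 0.995). For Ntrk2 they were Odz3, Gm1043 and Odz4 (0.997, 0.995 and 0.995), for Ntrk3 Pggt1b, Gm20045 and Ifnar1 (0.924, 0.922 and 0.916), and for Ngfr BC037034, Mrap2 and AI836003 (0.860, 0.850 and 0.845). For Igf1 they were Xlr, Ccnf and Adamtsl5 (0.929, 0.918 and 0.907), for Igf1r Vps13d, Dst and Zfp871 (0.888, 0.834 and 0.827), and for Fndc5 3632454L22Rik, Boc and Lcat (0.995 each). The samples share a region divide that most genes follow, so these values describe likeness over 2 tissues.

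Of 8 lists of related genes, 147 genes had a row and 134 were tested. Between the lines 6 of the 134 passed in the Ce (4.48%, against 5.94% of all genes), 1 in the St (0.746%, against 2.66%) and 0 for the interaction, where 0.532% of all genes passed. Between the regions 114 of them passed (85.1%, against 80.2%).

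Of the 12 neurotrophin ligands and processing genes tested, 5 were higher in the Ce, 6 were higher in the St and none passed between the lines within a region. Pcsk5, a proprotein convertase gene, was higher in the St, at -2.61. The convertase gene Furin was higher in the Ce, at 0.85 (FDR-adjusted P-value = 9.25e-12).

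Of the 15 receptor and partner genes tested, 11 were higher in the St and 2 in the Ce. Sorcs2, a sortilin relative that acts with the pan-neurotrophin receptor, had a region log2(fold change) of -3.21 (FDR-adjusted P-value = 1.42e-17), and Lingo1, a partner of the same receptor, of -2.69. Between the lines 2 of the 15 rose in the Ce. Kidins220, a scaffold of Trk receptors, rose by 0.26 (SE 0.0595, FDR-adjusted P-value = 0.0127) from 10585 to 12786 normalized counts, and Tnfrsf19, a member of the receptor family of Ngfr, by 0.41 (SE 0.0844, FDR-adjusted P-value = 0.00668) from 926 to 1231. In the St, Kidins220 ranged from 13578.5 to 14255 in StCo and from 14610 to 15619 in StHi, without overlap, and the lines overlapped for Tnfrsf19. No gene of this list passed between the lines in the St or for the interaction. The 15 genes had a median line difference of 0.06 (Ce) and -0.05 (St).

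Of the 39 Trk adaptors and effectors tested, 14 were higher in the Ce, 16 were higher in the St, and 2 passed between the lines in the Ce. Sh2b3, an adaptor that limits kinase signalling, rose by 0.24 (FDR-adjusted P-value = 0.0175), and Mapk7, the kinase ERK5, fell by 0.27 on the log2 scale (FDR-adjusted P-value = 0.0362). Between the regions Shc3, a neuronal Trk adaptor, was higher in the St, at -2.22, and Shc4 was higher in the Ce, at 1.70.

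Of the 9 granin and secretory granule genes none passed between the lines, and 3 were higher in the Ce and 5 in the St. Scg2, the secretogranin II gene, was higher in the St at -1.27, in the direction of Vgf but with a smaller value, as was Nucb2 at -2.27. Cadps2, whose product promotes the release of granules with BDNF and neurotrophin 3 in the cerebellum, was higher in the Ce at 2.70, with 17692 normalized counts in CeCo and 3039 in StCo.

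Of the 21 genes of the insulin-like growth factor system tested, 1 passed between the lines in each region. Pappa, a protease that frees insulin-like growth factors from a binding protein, had 49.4, 58.4, 51.5 and 49.4 normalized counts in StCo and 94.7, 82.5 and 68.9 in StHi. It rose by 0.63 (SE 0.117, FDR-adjusted P-value = 0.00535), with all StHi samples above all StCo samples. Igf2r, a scavenger receptor of insulin-like growth factor II, fell by 0.31 on the log2 scale in the Ce (SE 0.0882, FDR-adjusted P-value = 0.0458). Irs4, Igfbpl1 and Stc1 were higher in the St at region values of -6.30, -4.90 and -4.87, and the list held 10 genes higher in the Ce and 8 higher in the St.

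Of the 10 relatives and regulators of Fndc5 none passed between the lines within a region, with 7 genes higher in the Ce and 2 higher in the St. The nuclear receptor genes Esrrb and Esrrg were higher in the Ce at 3.18 and 1.57, and Fndc3b was higher in the St at -1.55. Ppargc1a, a coactivator that raises Fndc5 in muscle, was higher in the Ce at 0.24 (FDR-adjusted P-value = 0.000398), and its line differences were -0.05 in the Ce and -0.05 in the St. Of the 15 GDNF family and other trophic factor genes none passed between the lines within a region. Gdnf, its receptor gene Gfra1 and the related Gfra2 were higher in the St at -2.68, -4.06 and -2.13, and the list held 6 genes higher in the Ce and 8 higher in the St.

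Of the 13 activity-regulated genes, which neurons transcribe after firing, 1 passed between the lines in the Ce and 10 were higher in the St than in the Ce. Nptx2, a secreted synaptic pentraxin gene that BDNF can induce, had 36.3, 35.7, 36.7 and 51.7 normalized counts in CeCo and 77.4, 96.0, 85.2 and 150 in CeHi. It rose by 1.29 (SE 0.186, FDR-adjusted P-value = 0.000366), and every CeHi sample lay above every CeCo sample. In the St its mean was 1861 ± 328 (SD, n = 4) normalized counts in StCo and 1899 ± 189 (SD, n = 3) in StHi, with a line difference of 0.04 (FDR-adjusted P-value = 0.972), and the interaction was 1.25 (SE 0.274, FDR-adjusted P-value = 0.0551) and did not pass. The 13 genes had a median line difference of 0.43 (Ce) and 0.04 (St). Nptx2 is, like Vgf, far higher in the St, and the part of the medium spiny neuron markers in its values in the Ce was not tested. The CeHi sample with the highest Nptx2 had the lowest sum of these markers in CeHi, and the CeCo sample with the highest Nptx2 had the highest sum in CeCo. Fosb, Nr4a3 and Fos had line differences of 0.68, 0.84 and 0.68 in the Ce that did not pass (FDR-adjusted P-values = 0.0764, 0.0932 and 0.465), and those of Egr1 and Arc were -0.28 and 0.11. Fos had 514, 1960, 2409 and 622 normalized counts in CeCo and 1440, 1867, 2045 and 1858 in CeHi. Its positive value thus came with low counts in CeCo replicates 0 and 3, while CeCo replicate 2 lay above every CeHi sample. Between the regions, Nptx2 and Fosb were higher in the St at -4.88 and -4.01. Egr2 had 0 to 7.41 normalized counts in the Ce, near the level of 3 fragments, and 349 to 896 in the St, a region difference of -7.57 that passed.

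**Figure D5:**
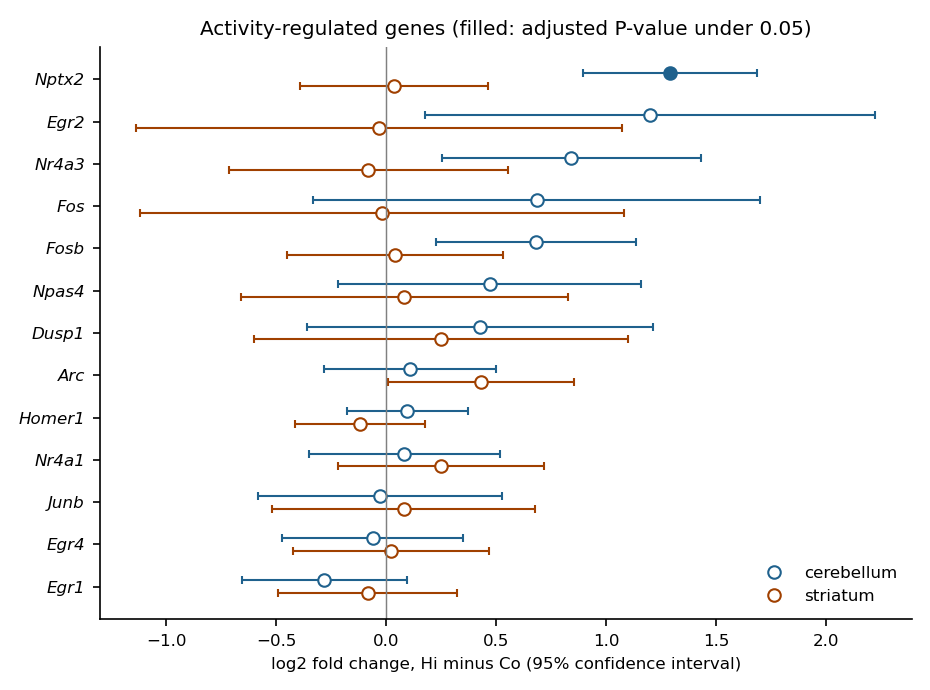
Line difference (log2 fold change, Hi minus Co, horizontal axis) of the 13 activity-regulated genes in the Ce and St, with points for the estimate and bars for the 95% confidence interval, filled where the adjusted P-value was under 0.05. Nptx2 in the Ce at 1.29 is the filled point, and the St values lie between -0.12 and 0.43.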

How the data were processed

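Values of 15 samples were used. Alignment of paired-end reads of 100 bases to GRCm38 was done by the authors with TopHat2, and library-size normalization with Cuffnorm 2.2.1. The deposited values are a signal (fragment counts over a library-size factor) that the authors did not scale by length, in spite of a table name that speaks of FPKM. Between 99.6% and 99.8% of the low values of a sample lay within 0.1 of a whole multiple of a common step. The annotation used for counting is not given in the sources used here. The authors removed 1 StHi sample, which was not analysed here.

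Genes with a CPM of at least 1 in 3 or more samples (15213 of 26628) were rescaled by TMM (trimmed mean of M-values). The TMM factors ran from 0.9329 to 1.055, above 1 in every Ce sample and below 1 in every St sample. Multiplied by the library totals, they gave effective scaling factors of 0.993 to 1.01. The model for log2(normalized count + 1) was a limma fit (limma 3.58.1, R 4.3.3, 4 group means, trended and robust empirical Bayes, Benjamini-Hochberg adjustment over all genes tested). Fold changes on this scale understate the change of low genes. Genes were placed with GENCODE M21 on GRCm38, where 22467 symbols were found as spelled, 2077 as older symbols and 2084 not at all. Lengths are merged exons, with the longest transcript and the coding length as alternatives.

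The members and the related lists were chosen with earlier results of these data known. Genes named beyond the 10 are all related genes that passed between the lines within a region, the 3 of each list with the largest region difference, the 3 genes most correlated with each member and genes that overlap a member. A few of these genes are not reported here. Furin, Ppargc1a, Fosb, Nr4a3, Fos, Egr1 and Arc were in addition named after their values were seen, as were the marker genes. The labels do not say that equal sample numbers mark 1 mouse. Residuals of the Ce and St samples with the same number correlated at 0.17 to 0.28 over 4 Co pairs and at -0.08 to 0.05 over 3 Hi pairs, so the numbers were not used as pairs. The labels name separate samples, and P-values measure the spread between them.

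Each choice of pseudocount, filter, scaling and moderation was varied, as were sample quality weights, a replicate block, fits of single regions or lines and the samples left out one at a time.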

Additional observations from a re-analysis of the deposited data

Results flagged for a closer look

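In 2 of 30 sets of 4 samples (10 genes in CeCo, CeHi and StCo), 1 sample stood apart from the other samples of its group by Dixon's test at the 95% level, and chance alone flags about 1 in 20 sets. Sort1 had 8080 normalized counts in CeHi replicate 3, against 9104 in the nearest of the other CeHi samples. Fndc5 had 3993 normalized counts in StCo replicate 0, against 3359 in the nearest of the other StCo samples.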

How the results depend on the processing

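Among the 10 genes, 1 passed for the line difference in the Ce, and this count was 2 with no filter on low values, with quantile normalization and with moderation without the robust option, 3 with sample quality weights, 4 with the Ce fitted alone and 1 to 3 with 1 sample left out. Vgf passed in the Ce in each of these fits, with FDR-adjusted P-values of 0.000871 to 0.0239. The genes that joined it were Bdnf, Sort1 and, with the Ce alone, Ntf3. The count for the line in the St was 0, and it was 1 with sample weights and 0 to 1 with 1 sample left out. For the interaction it was 0, and 2 with sample weights (Bdnf and Sort1) and 0 to 2 with 1 sample left out. For the line over both regions it was 2, and it was 1 with no filter, with the filter of 0.1 normalized counts and with moderation without the trend, where Ntf3 was lost, and 1 to 2 with 1 sample left out. Over all genes, sample weights moved the calls in the St from 405 to 740 and those of the interaction from 81 to 182. Region counts stayed at 9 over both lines and ranged from 6 to 8 in Co and from 7 to 9 in Hi. The causes of these shifts were not tested. The tests of edgeR and DESeq2 that had been planned on recovered fragments were not run, because the deposited values are scaled and, in 5 of the 15 columns, isolated values below the step kept them from being accepted as whole fragments throughout.

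With the replicate number as a block, 2 genes passed for the line in the Ce (Bdnf, FDR-adjusted P-value = 0.0143), 1 for the interaction (Bdnf, 0.95, FDR-adjusted P-value = 0.0331) and 1 for the line over both regions, since Ntf3 no longer passed (-0.42, FDR-adjusted P-value = 0.0511). Ngfr no longer passed between the regions in Hi under the block (FDR-adjusted P-value = 0.0645) or the block within line (0.0614). Each StCo sample correlated best with the CeCo sample of its own number, and none of the 3 StHi samples did so with its own.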
